A study of Homo sapiens with 10 samples.

Results

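Undifferentiated cells of WA09, a long-established line of human embryonic stem cells (hESC), served as the common control for 4 cell types made from the same line. These were definitive endoderm, called DE, splanchnic mesoderm, called MESO, neural progenitors, called NPC, and pre-neural crest cells, called NCSC. Of the 10 RNA libraries 2 were hESC. The deposited data are 4 tables, 1 per derivative, and each table holds 1 hESC value per gene beside 1 value of its derivative, in FPKM (fragments mapped per length of transcript and per library size, so a level corrected for gene length). The hESC values of the 4 tables are described here, each named by its table. The labels name both hESC libraries for all 4 tables, so the 4 columns are not shown to be 4 cultures. Differences between cultures, between the libraries used for a column and between runs of the authors' software cannot be told apart. Each column is 1 value with no replicate error, so no test was possible and no p-value is given.

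The hESC were seeded on Matrigel at 50000 cells per square centimetre and kept for 4 days in 8 ng/mL FGF, with activin A and heregulin at 10 ng/mL each and IGF-I at 200 ng/mL, at passages 52 to 58. DE, grown for 4 days, had FGF at 8 ng/mL, activin A at 100 ng/mL and, on the opening day, Wnt-3a at 25 ng/mL, without IGF-I or heregulin. MESO, also grown for 4 days, had the hESC factors together with 100 ng/mL of BMP-4 and 25 ng/mL of Wnt-3a. NPC and NCSC were seeded at 90000 cells per square centimetre and grown for 6 days with IGF-I and heregulin and the activin receptor inhibitor SB431542. NPC also had the BMP receptor inhibitor LDN at 500 nM, and NCSC had FGF and the GSK3 inhibitor BIO. All 5 cell types came from the same line, and the labels do not say whether the 2 libraries of a type came from separate cultures.

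In human embryonic stem cells, OCT4 (the product of POU5F1), SOX2 and NANOG hold the undifferentiated state under FGF and activin signalling, and LIN28A, an RNA-binding protein, blocks maturation of let-7 microRNAs. Around this core, cultures carry programmes that respond to the medium and to handling: metallothioneins follow zinc and other metals, ATF4 targets follow amino acid supply, sterol genes follow cellular cholesterol through SREBP2, and p53 targets follow DNA damage and other stress.

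The tables held 21298 single gene symbols on chromosomes 1 to 22 and X in common, and the 9116 with an FPKM of at least 5 in any of the hESC columns were kept. For each gene the difference is log2(FPKM + 1) in the DE-table column minus the mean of the other 3, shifted so that the median gene is at 0. A gene was counted as higher or lower where this difference was at least 1. A closer measure, the gap, is how far the DE-table value lies outside the range of the other 3 columns after each column is centred, and a gap of at least 0.3 was counted.

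The promoters of 4 genes that carry the lower values below are shown early, since their sequences hold elements known from the metal and amino acid responses. The stretches end at the base before the RefSeq transcription start and are from RefSeq on GRCh38.p14, whereas the tables use hg19. For the metallothioneins MT2A (chr16:56608404-56608583, plus strand) and MT1H (chr16:56669634-56669813, plus strand), capitals mark matches on either strand to TGCACNC or TGCGCNC, the core of the metal response element. For ASNS, asparagine synthetase (chr7:97872409-97872538, minus strand), and CHAC1, a glutathione-degrading enzyme (chr15:40953221-40953470, plus strand), capitals mark matches on either strand to TGATGNAA, the core of the element bound by C/EBP and ATF4.
MT2A: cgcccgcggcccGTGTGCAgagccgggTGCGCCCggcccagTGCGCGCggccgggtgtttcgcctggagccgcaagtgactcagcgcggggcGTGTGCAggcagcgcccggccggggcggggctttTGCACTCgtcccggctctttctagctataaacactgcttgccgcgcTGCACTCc
MT1H: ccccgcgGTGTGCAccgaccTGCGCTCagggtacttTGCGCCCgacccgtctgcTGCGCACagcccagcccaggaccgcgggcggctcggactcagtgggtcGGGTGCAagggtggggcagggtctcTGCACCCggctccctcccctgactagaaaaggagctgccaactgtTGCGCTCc
ASNS: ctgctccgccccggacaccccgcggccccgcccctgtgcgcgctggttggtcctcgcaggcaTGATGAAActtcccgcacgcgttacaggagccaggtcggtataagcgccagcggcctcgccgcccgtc
CHAC1: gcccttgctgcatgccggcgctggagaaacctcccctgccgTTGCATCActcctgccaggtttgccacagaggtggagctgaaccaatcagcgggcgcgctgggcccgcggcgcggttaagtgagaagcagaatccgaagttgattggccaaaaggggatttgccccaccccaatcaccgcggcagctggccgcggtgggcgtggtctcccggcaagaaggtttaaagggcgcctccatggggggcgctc
The stretch of MT2A held 6 matches and that of MT1H 7, whereas those of ASNS and CHAC1 held 1 each. Over the whole window from 250 bases before to 50 bases after the start, the metal response core was found in 29.35% of 27305 promoters and more than 3 times in 0.593%. Of the 6 lower metallothioneins 3 had such a window, with 8 matches in MT2A, 8 in MT1H and 4 in MT1X. The C/EBP-ATF4 core was found in 3.673% of windows. Of 10 genes of the amino acid response list that lay below the other columns 8 had a window, and ASNS, SLC3A2 and CHAC1 held a match. A match is a description of letters and not a site shown to be bound.

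The cells of all 4 columns carried the markers of undifferentiated cells. POU5F1 had an FPKM of 232 in the hESC column of the DE table, 217 in that of the MESO table, 235 in that of the NPC table and 221 in that of the NCSC table. SOX2 had 238, 231, 260 and 244 in the same order, and LIN28A had 406, 413, 478 and 446. The 3 markers were close in the 4 columns, with differences of 0.10, 0.01 and -0.08 on the log2 scale. The locus end of each differed between tables, so the values are not over exactly the same region. SOX2, which starts at 180774467 of chromosome 3, ended at 181460013 in the DE table and 181460668 in the NPC table.

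Most listed markers of other cell types were below 5 FPKM in every column: 13 of 14 for primitive streak, 14 of 19 for definitive endoderm, 17 of 20 for mesoderm and heart, 16 of 19 for neural progenitors, 13 of 18 for neural crest, 16 of 20 for amnion and trophoblast and 11 of 18 for fibroblast and mesenchyme. Of the 14 measured primitive streak genes 7 were below 1 FPKM in all columns, and their summed level was 29.6 FPKM in the DE-table column against 19.2 to 23.2 in the other 3. WNT3, the 1 member kept, was at 12.4, 9.71, 7.06 and 6.42 FPKM in the DE, MESO, NPC and NCSC tables. The definitive endoderm list summed to 77.7 FPKM in the DE-table column against 68.2 to 78.3, the mesoderm and heart list to 37.2 against 40.9 to 48.3, the neural progenitor list to 144 against 124 to 137, the neural crest list to 58.3 against 59.5 to 66.6, and the amnion and trophoblast list to 314 against 306 to 332. Listed at 0 in all columns were 2 of 20 mesoderm, 2 of 19 neural progenitor and 2 of 20 amnion and trophoblast genes. The fibroblast and mesenchyme list summed to 349 FPKM against 296 to 324. This list had a median difference of 0.44, with 4 of 7 kept members above by the gap, where 7.26% of all genes were, and none below. Its kept members farthest from 0 were COL1A2, a chain of type I collagen (32.1 against 21.8 to 24.7 FPKM), FN1, fibronectin (41.2 against 27.3 to 32.5), and COL5A2, a chain of type V collagen (6.10 against 3.03 to 6.50). The part of such other cells in the differences below was not tested.

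The hESC column of the DE table differed from the rest gene by gene. Its median absolute difference was 0.142, against 0.0640, 0.0661 and 0.0629 for the MESO, NPC and NCSC columns each set against its own other 3. The reference of those columns includes the DE-table column, so their values carry part of its deviation. Among the genes with 1 row per symbol in every table, the median absolute difference was 0.0148 between the NPC and NCSC columns, 0.0605 between MESO and NPC and 0.0553 between MESO and NCSC, and 0.137 to 0.146 between the DE-table column and each of the others. The NPC and NCSC columns kept nearly a fixed ratio, with the NPC value 1.07 times the NCSC value at the median and 84.6% of 7721 genes within 5% of that ratio. Between the MESO and NCSC columns 59.3% of genes lay within 5% of their median ratio, and between the DE and NCSC columns 24.5%. The MESO value lay below the NCSC value, and that below the NPC value, in 80.8% of the 7721 genes. Which libraries lie behind each column is not given in the sources used here. Where the MESO, NPC and NCSC columns lie close together below, this cannot be read as agreement between replicates.

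**Figure D1:**
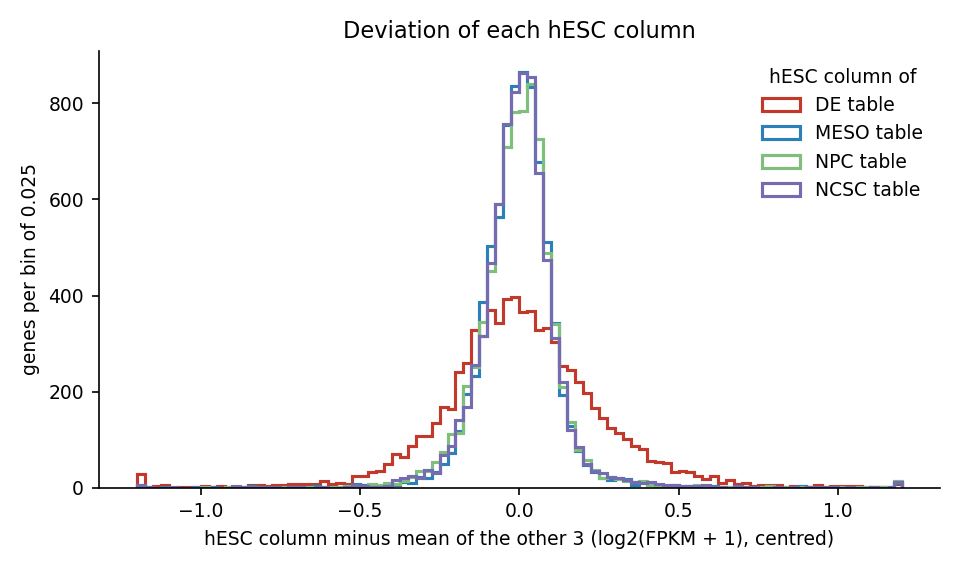
Distribution over genes of the difference of each hESC column from the mean of the other 3, on the log2(FPKM + 1) scale, centred, for genes with 1 row per symbol in every table (lines are counts per bin of 0.025; values beyond 1.2 are drawn in the outermost bins). The DE-table column is the broadest, with a median absolute difference of 0.139 against 0.0602 to 0.0640 in the other columns, whose references include the DE-table column.

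By the gap of 0.3, 662 genes (7.26%) lay above and 538 (5.9%) below the other columns in the DE table. In the MESO-table column 43 genes lay above (0.472%) and 26 below (0.285%), in the NPC-table column 33 (0.362%) and 21 (0.23%), and in the NCSC-table column 181 (1.99%) and 56 (0.614%). By the difference of 1, the DE-table column was higher for 57 genes (0.625%) and lower for 140 (1.54%), or for 85 and 118 after quantile normalization. Without the NCSC column the lower count was 76, so the 1.54% rests in part on that column. Many of the largest differences were in symbols with several rows in a table. Small RNA symbols made up 16 of the 57 higher and 15 of the 140 lower genes, but 54 of all 9116. Without them 41 genes were higher and 125 lower. Where each symbol had 1 row in every table, 23 genes were higher and 43 lower, and these counts still hold small RNAs. The gap counts with 1 row, 551 above and 458 below, stayed in proportion to the 7732 genes left. In the NCSC-table column 35 of the 7732 (0.453%) lay above and 18 (0.233%) below. The difference did not follow locus length, with medians of -0.0036 to 0.0027 over 4 equal bins of length. It moved with level, from 0.037 in the lowest to -0.035 in the highest of 5 equal bins of mean level. In the authors' deposited tables the log2 ratio per unit of the test score, larger where the fit was noisier, had a median of 0.710 in the DE table, 0.609 in MESO, 0.434 in NPC and 0.437 in NCSC. The authors' deposited tables called 63, 2143, 5504 and 4567 loci at q under 0.05 in the same order.

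Metallothioneins, small cysteine-rich proteins that bind zinc and copper, were the gene list farthest from the median. Of 7 kept members 6 were lower in the DE-table column by at least 1, where 1.54% of all genes were, and the median difference of the list was -2.41 against 0 over all genes. MT1H had an FPKM of 3.83 in the DE table against 55.1, 64.5 and 60.7 in the MESO, NPC and NCSC tables (difference -3.61). MT1G had 17.2 against 129, 151 and 141 (-2.91), and MT1E had 3.74 against 29.3, 34.1 and 32.3 (-2.74). In all 6 the DE-table value lay below the other 3, which lay close together. MT2A, the most widely expressed family member, had 10.9 against 59.7, 69.2 and 65.3 FPKM (-2.41), MT1F had 8.28 against 35.6, 41.3 and 38.9 (-2.04), and MT1X had 35.7 against 76.8, 88.0 and 79.9 (-1.12). All 6 have 1 row per symbol in every table and lie together on chromosome 16, from MT2A at 56642477 to MT1X at 56718108 of hg19 as the tables give them. Reads of these near-identical copies may be shared between members, so the split between them is uncertain while the direction was the same in each. The seventh kept member, the zinc exporter SLC30A1, was not lower: it had 7.10 FPKM in the DE table against 4.69, 6.04 and 5.13 (difference 0.42). MT1H and MT1E entered through the other columns alone, being under 5 FPKM in the DE table, so that they had to be lower there. Of the 5 members at or over 5 on both sides, 4 lay below by the gap, where 4.83% of all such genes did. The summed level of the 10 listed genes was 87.4 FPKM in the DE-table column against 394 to 458. Among the 6, the DE cells of the DE table were higher than its hESC in MT1H (8.17 FPKM), MT1G (29.7), MT1E (5.32) and MT2A, about level in MT1F (8.11), and lower in MT1X (13.2). MT2A was 25.2 FPKM in DE cells, above the hESC value of its own table, whereas it was 5.86 in MESO, 4.89 in NPC and 52.1 in NCSC cells, below the hESC values of theirs.

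The amino acid response list was also lower in the DE-table column. It holds targets of the transcription factor ATF4, among them enzymes and transporters for amino acids and one-carbon units. Of 19 kept members 10 lay below the other columns by the gap, where 5.9% of all genes did, and none above, with a median difference of -0.45. Of the 18 members at or over 5 FPKM on both sides, 9 lay below, where 4.83% of all such genes did. ATF5, a transcription factor induced by ATF4, had 4.62 FPKM against 16.0 in the MESO, 18.3 in the NPC and 17.2 in the NCSC table (difference -1.64). It entered through the other columns alone, so it had to be lower in the DE table. PSAT1, an enzyme of serine synthesis, had 104 against 218, 258 and 244 (-1.15); its FPKM ratio and the deposited score had opposite signs in a table, so its value is uncertain. ASNS had 43.5 against 89.9, 106 and 100 (-1.11). In each of these the DE-table value lay well below the other 3, which lay closer together. The other members below by the gap were CHAC1 (difference -1.01), the amino acid transporters SLC7A5 (-0.98), SLC3A2 (-0.60) and SLC7A11 (-0.72), the mitochondrial enzymes PCK2 (-0.75) and SHMT2 (-0.72), and STC2 (-0.45). ATF4 itself was closer to the others, at 184 FPKM against 207, 235 and 220 (difference -0.21).

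**Figure D2:**
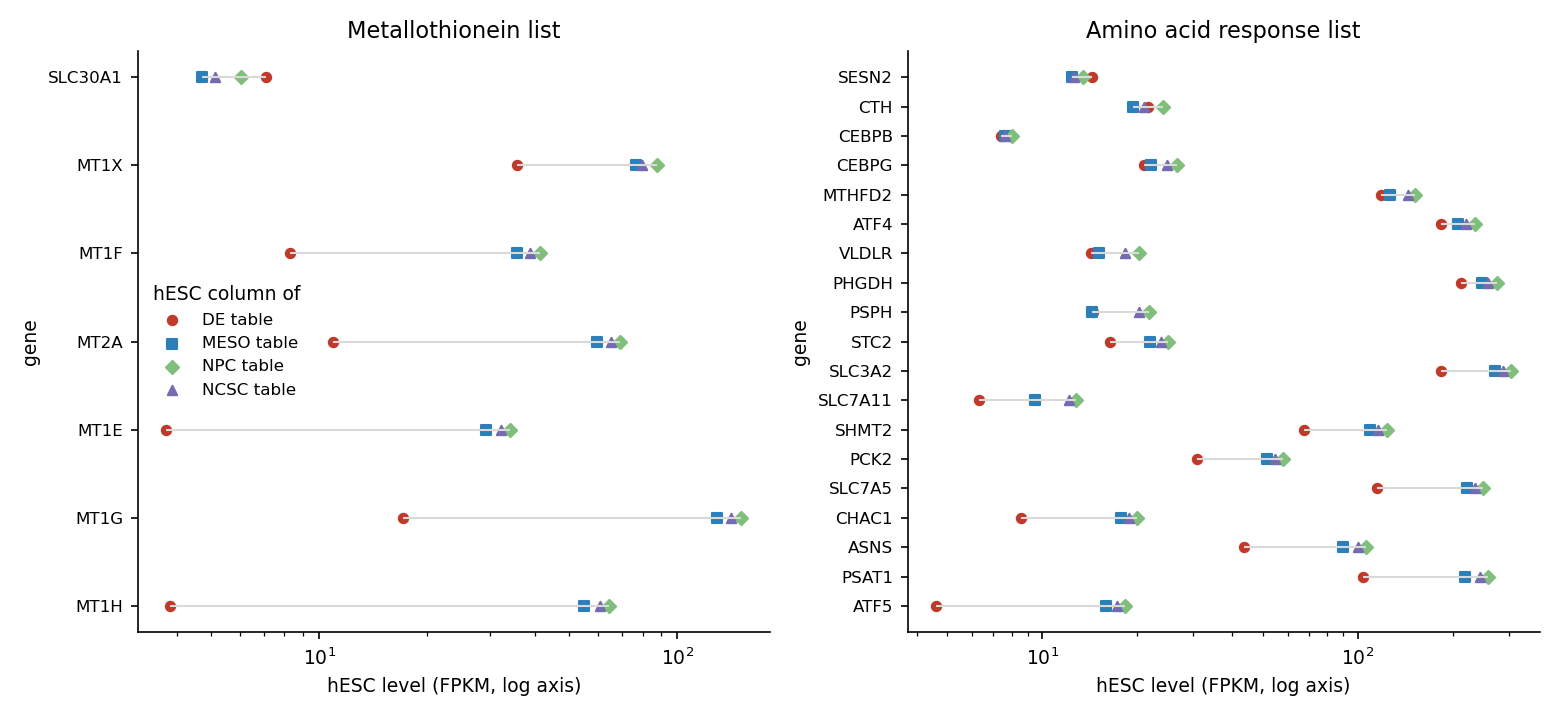
FPKM (log axis) of each kept gene of the metallothionein list (left) and amino acid response list (right) in the 4 hESC columns, 1 point per table with no error bar, as each is 1 value. The DE-table point lies below the other 3 for all 6 metallothioneins, such as 3.83 against 55.1 to 64.5 for MT1H, but not for the zinc exporter SLC30A1.

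The ribosome biogenesis and MYC target list was named after its values were seen, as it lies outside the lists the naming rule prints. It had 10 of 21 kept members below the other columns by the gap, where 5.9% of all genes were, and none above, with a median difference of -0.31. ODC1, ornithine decarboxylase of polyamine synthesis, had 24.7 FPKM in the DE table against 54.3, 62.9 and 65.6 (difference -1.22). MYC had 27.0 against 34.4, 38.4 and 36.3 (-0.36) and MYCN 33.3 against 41.4, 45.3 and 42.8 (-0.32). None of 73 cytosolic ribosomal protein genes passed the gap in either direction, with a median of -0.13.

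Targets of p53 were higher in the DE-table column. Of 17 kept members 13 lay above the other columns by the gap, against 7.26% of all genes, none lay below, and the median difference was 0.52. CDKN1A, the cyclin-dependent kinase inhibitor p21, had 66.8 FPKM against 33.5 in the MESO, 34.6 in the NPC and 33.0 in the NCSC table (difference 1.02). GDF15, a secreted stress factor, had 14.5 against 7.39, 7.24 and 6.84 (0.97), and BTG2, an antiproliferative gene, had 12.3 against 6.62, 7.28 and 6.75 (0.80). In these 3 the other columns lay close together and the DE-table value stood apart. The apoptosis genes BBC3 (26.4 FPKM against 18.6 in the MESO table) and BAX (251 against 195 to 214) and the p53 ubiquitin ligase MDM2 (25.6 against 17.7 to 21.9) were also above. POLH was an exception in spread, at 7.48 FPKM in the DE table and 1.69, 6.06 and 6.38 in the others. Mitosis genes did not stand apart: none of 23 passed the gap in either direction, and their median was 0.06. Among 27 genes of G1-S and DNA replication 2 lay below (7.41%), where 5.9% of all genes did, and none above, with a median of -0.11.

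Cholesterol synthesis genes were higher in the DE-table column too. Of 20 kept members 17 lay above the other columns by the gap, where 7.26% of all genes did, and none below, and the median difference was 0.49. MVD, mevalonate diphosphate decarboxylase, had 100.3 FPKM against 65.3 in the MESO, 66.3 in the NPC and 62.5 in the NCSC table (difference 0.67). INSIG1, which retains SREBP in the endoplasmic reticulum, had 77.7 against 46.3, 54.7 and 51.0 (0.66), and STARD4, a sterol transfer protein, had 44.4 against 25.4, 32.9 and 30.1 (0.63), although its symbol has several rows in a table. The early enzyme HMGCS1 had 251 against 152, 191 and 171, and SQLE, squalene epoxidase, 143 against 95.3, 110 and 103. Each of these values in the DE table lay above all the others, and the smallest difference of the list was 0.14, in PMVK. In fatty acid synthesis 4 of 10 kept members lay above, against the same 7.26%, and none below: ACSS2, the acetyl-CoA synthetase (60.4 against 30.3 to 35.5 FPKM), SCD, the desaturase (442 against 323 to 374), ACLY (242 against 186 to 202) and ELOVL6 (50.5 against 36.7 to 44.2).

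**Figure D3:**
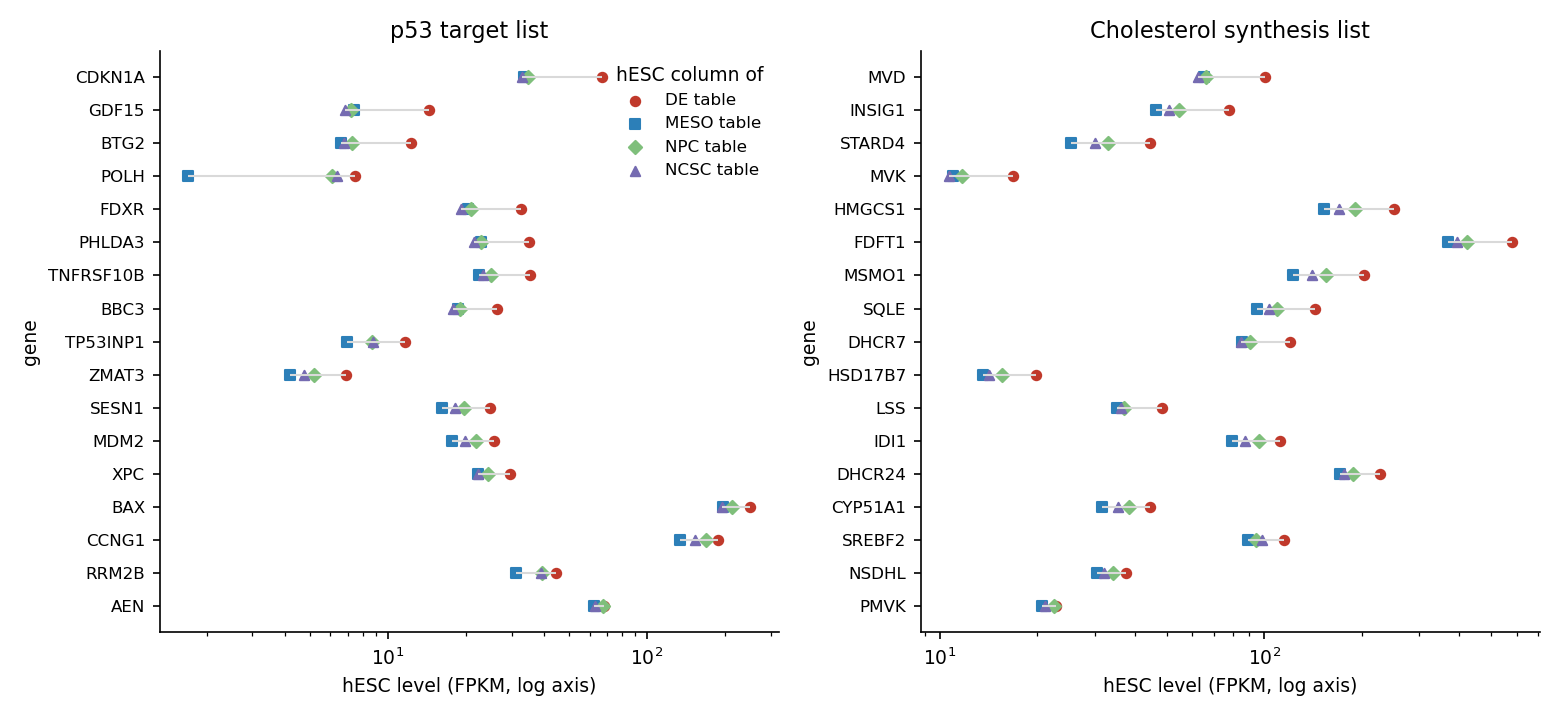
FPKM (log axis) of kept p53 targets (left) and cholesterol synthesis genes (right) in the 4 hESC columns, 1 point per table with no error bar. The DE-table point lies at the right for each gene drawn, by a narrow margin at AEN and PMVK, and CDKN1A shows 66.8 against 33.0 to 34.6.

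Genes of extracellular matrix and integrins lay above by the gap in 10 of 20 kept members and below in none, with a median difference of 0.38. COL4A5 and NID2 entered through the DE-table column alone and so had to be higher there; without them 8 of 18 lay above, where 6.53% of all genes at or over 5 FPKM on both sides did. COL4A5, a type IV collagen chain, had 8.68 FPKM against 4.56 in the MESO, 3.87 in the NPC and 4.05 in the NCSC table (0.96), although its symbol has several rows in a table. NID2, nidogen of the basement membrane, had 6.10 against 3.95, 4.05 and 4.23 (0.53), and FN1 was given above. ITGAV, an integrin chain for RGD ligands, went the other way, at 13.1 against 15.5, 19.5 and 18.2 (-0.36). Of the histone genes whose messages lack a poly-A tail as a rule, 23 were below 5 FPKM, and 3 were kept. HIST1H2AC (8.00 against 4.40 to 4.66 FPKM) entered through the DE-table column alone and had to be higher there. HIST1H1C had 7.24 against 5.05 to 5.40 and HIST1H2BK 11.7 against 8.67 to 9.53. Libraries were made from poly-A RNA.

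**Figure D4:**
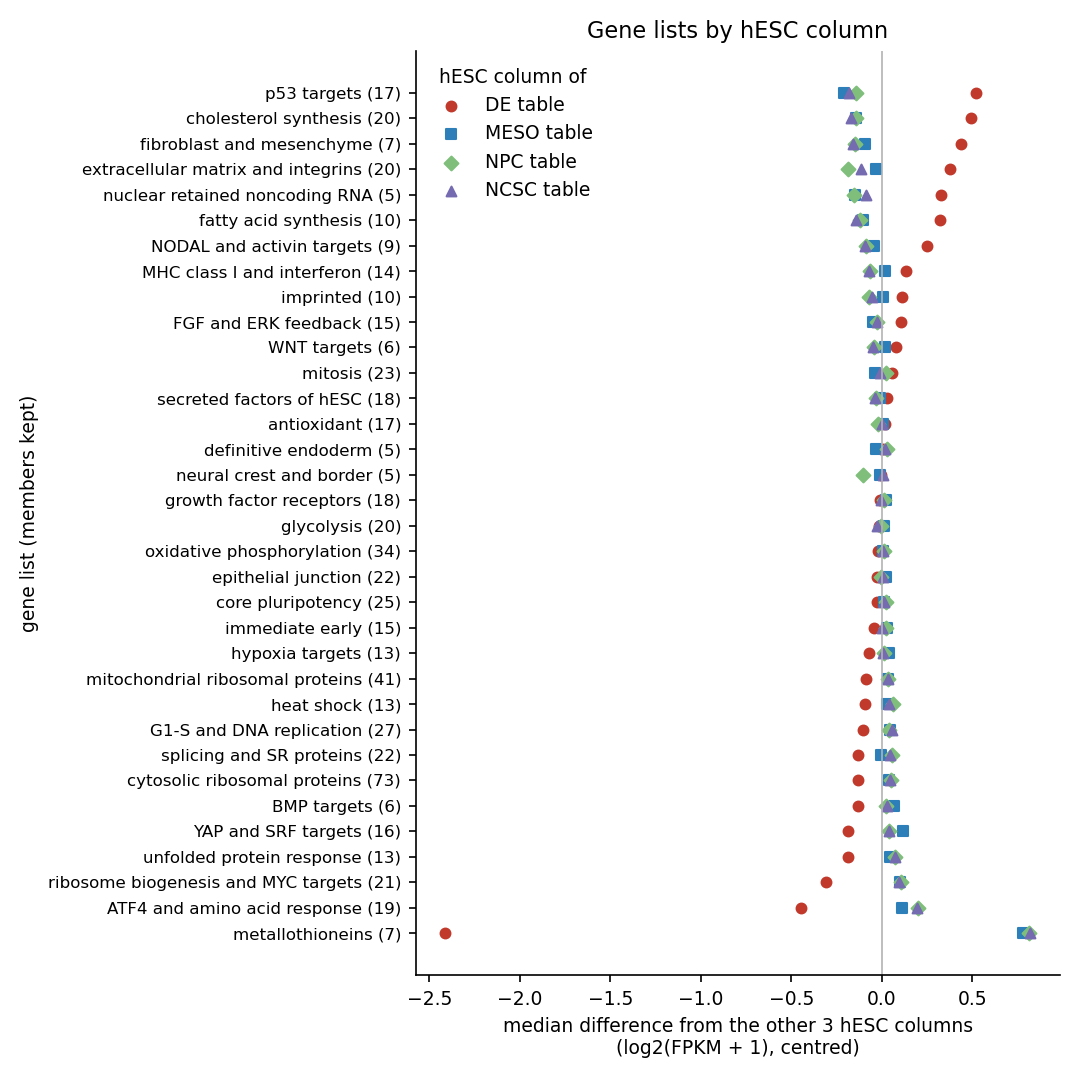
Median difference of each gene list with at least 5 members kept (number in brackets) in each hESC column against the other 3, on the log2(FPKM + 1) scale. The DE-table column spreads from -2.41 in metallothioneins to 0.52 in p53 targets. The references of the other columns include the DE-table column, so their points partly mirror it.

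The core pluripotency list had a median difference of -0.03, with 4 of 25 genes above and 2 below by the gap, where 7.26% and 5.9% of all genes were; the 2 below are near that share and are given as values. TRIM71, the LIN41 ubiquitin ligase that let-7 represses, had 149 FPKM in the DE table against 96.2 in the MESO, 103 in the NPC and 101 in the NCSC table (difference 0.61). GDF3 had 10.7 against 7.69, 8.60 and 7.98, the long noncoding RNA ESRG 325 against 247, 283 and 265, and NANOG 19.2 against 14.4, 16.7 and 15.6. Below were L1TD1, an RNA-binding protein (138 against 167, 201 and 186), and OTX2, a homeobox factor of primed cells (17.1 against 20.6, 23.8 and 22.5). The rest lay within 0.3 of the other columns. The methyltransferase DNMT3B was at 834 to 998 FPKM, DPPA4 at 408 to 481, PODXL at 370 to 424, TDGF1, the NODAL co-receptor, at 253 to 297, ZFP42 at 85.3 to 106, SALL2 at 81.3 to 105, TERF1 at 77.2 to 92.3, PRDM14 at 69.6 to 78.7, USP44 at 64.1 to 74.4 and SALL4 at 52.4 to 62.4. LIN28B was at 33.9 to 41.6, UTF1 at 24.3 to 27.6, DPPA2 at 14.9 to 17.0, ZIC2 at 13.5 to 16.0 and the telomerase gene TERT at 5.91 to 9.08 FPKM.

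**Figure D5:**
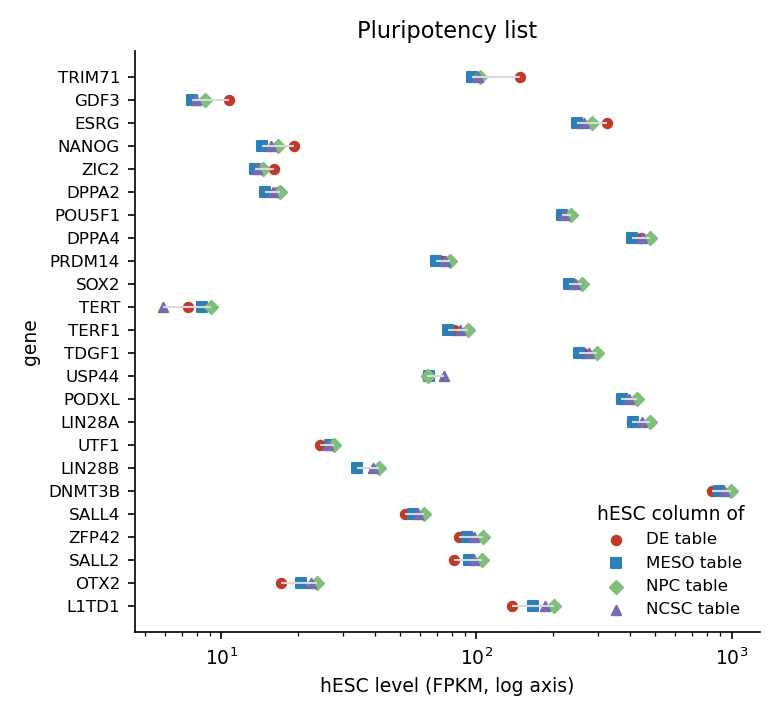
FPKM (log axis) of pluripotency genes in the 4 hESC columns, 1 point per table with no error bar, ordered by the DE-table difference. TRIM71 at the top has 149 in the DE table against 96.2 to 103, and L1TD1 at the bottom 138 against 167 to 201.

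Lists of energy metabolism and cell junctions did not stand apart. By the gap, 7.26% of all genes lay above and 5.9% below. In oxidative phosphorylation 1 of 34 kept genes lay below and none above (median -0.02). In glycolysis 1 of 20 lay above and 1 below (-0.02), and in epithelial junctions 2 of 22 lay above and 2 below (-0.02). The glucose transporters went apart, SLC2A3 at 249 FPKM in the DE table against 182 to 210, and SLC2A1 at 32.0 against 41.5 to 46.6, although the FPKM ratio and score of SLC2A1 disagree in sign in a table. Among 9 NODAL and activin targets LEFTY1 (25.5 FPKM against 20.3 in the nearest column) and GDF3 lay above, 2 of 9 where 7.26% of all genes did, and none lay below. The median difference of this list was 0.25, larger in size than those of the lists just given. GDF3 is also a member of the pluripotency list.

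The 15 genes with the farthest gaps in each direction were mostly ones whose symbol has several rows, so that another row may have been kept in each table. Of this kind were 13 of the 15 higher and 9 of the 15 lower. Among the lower, SERINC4 was listed at 0 in the DE table against 1682, 1899 and 1797 FPKM. It shares its locus with a row merged under HYPK and SERF2, to which PDIA3 was joined in the DE table alone. RHOT1, RAE1, WDR27, PCGF1, C8orf44-SGK3, PRDM10 and CA5B were also listed at 0 in hESC of the DE table. In DE cells the same rows held from 9.78 (C8orf44-SGK3) to 398 FPKM (RHOT1), and the row kept is that of highest mean over hESC and derivative. For RAE1, WDR27, C8orf44-SGK3 and PRDM10 the kept rows had the same start and end in every table. With all rows of a symbol summed, RHOT1, RAE1, WDR27 and PRDM10 turned direction. WDR33 and CTAGE5 were low with several rows, and TMEM220 had 1 row, at 0.55 FPKM against 9.17 to 10.9. The remaining 4 were MT1H, MT1G, MT1E and MT2A. Among the higher, FBXO22 (705 against 28.5 to 34.5 FPKM) and MYO1E (557 against 28.8 to 32.8) came from symbols with several rows, as did BACE2, DGCR14, DUS2L, AMDHD2, DLG5, JMJD1C, EIF4E2, RBM5, SLC12A9 and MAN1B1. The 2 with 1 row were SLC4A5, a bicarbonate transporter (5.51 against 0.46 to 0.61), and TMEM140 (6.90 against 1.34 to 1.42).

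Between the MESO, NPC and NCSC columns the range had a median of 0.075 on the log2 scale. The 10 genes with the widest range all came from symbols with several rows in a table. LOC728012, LOC100652739, PDE4D, ZNRD1-AS1, ADGB, FER, ARL14EPL and CSF1R were high in the NCSC table, from 285 FPKM in CSF1R to 62749 in LOC728012, and at or below 2.98 in the other tables. SORCS2 had 348 in the NPC table.

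The highest genes common to the 4 columns were those of protein synthesis, the cytoskeleton and glycolysis. Ranked by the lowest of their 4 values among 20096 symbols without small RNAs, the leading gene was RPL37A, a large-subunit ribosomal protein, at 2157 to 2647 FPKM. Cytosolic ribosomal protein genes made up 15 of the leading 30 and 40 of the leading 100. Among these, with RPL37A, were RPL8, RPL38, RPS16, RPLP1, RPS6, RPL11, RPL30, RPL23, RPL35A, RPS24, RPLP2 and RPL27. The cytoskeletal ACTG1 (1636 to 1788 FPKM) and ACTB (1585 to 1940) ranked 3 and 4. Also among the 30 were TMSB10, which binds actin, the elongation factor EEF2 (1203 to 1294), the ribosome-bound GNB2L1 (RACK1), the glycolytic GAPDH (1172 to 1385) and LDHB, the peroxidase PRDX1, the chaperones HSP90AB1 and HSP90AA1, TPT1, MIF and the respiratory subunit COX7C. DNMT3B, at rank 28, was the only member of the pluripotency list among these 30. DPPA4 ranked 86, LIN28A 87, PODXL 95, TDGF1 142, ESRG 154, SOX2 166 and POU5F1 175, whereas NANOG ranked 4542. Ranked by the mean of the columns, 24 of the leading 30 were the same.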

How the data were processed

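RNA of 10 libraries, selected for poly-A, was sequenced, 2 per cell type, per the labels' protocols. Cufflinks 2.2.1, TopHat2 2.0.13, featureCounts and Subread 1.5.2 appear, with hg19 and no stated roles, per the submitters' processing notes. The deposited values are FPKM, with the replicates combined by the authors. The test score, p-value and q-value were computed by the authors, per the file headers. The depth behind a value is unknown here.

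From the 4 tables the rows on chromosomes 1 to 22 and X were taken. In each table, a symbol with several rows was represented by that of highest mean FPKM of hESC and derivative. Then 413 labels of merged loci were left out, and genes with an FPKM of at least 5 in any hESC column entered. The pseudocount was 1. Differences and gaps were computed with Python 3.11.15, pandas 2.3.3 and numpy 2.4.6, and the script was tested on simulated data. The planned limma fit needed 1 column per library and could not be run. Named genes were the 25 pluripotency genes, the 15 farthest gaps in each direction, the 3 members farthest from 0 in up to 8 lists, the 30 highest, and the 10 widest ranges between the MESO, NPC and NCSC columns; small RNA symbols were left out of these. Some genes under this rule are not reported here. Other members of lists were named after their values were seen. The gene lists and members were chosen with earlier results of these data known. Motifs were searched in RefSeq promoters on both strands. Alternatives were other pseudocounts, filters, thresholds, centring, row choices and leaving out a column; the gap itself, the restriction to 1 row per symbol and keeping merged loci were added after seeing the data.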

Additional observations from a re-analysis of the deposited data

How the results depend on the processing

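The counts were 57 genes higher and 140 lower by 1 log2, and 662 above and 538 below by the gap of 0.3. With a pseudocount of 5, 85 were lower, 351 above and 313 below. With an FPKM of at least 5 in every column 32 were lower, and with no filter 820 lay below. Only 1856 of the 9116 genes (20.4%) had the same locus start and end in all 4 tables, and among these 14 were higher, 58 lower, 167 above and 120 below. On the centring of all genes, 9.91% of these 1856 lay above and 6.09% below, beside 7.26% and 5.9% of all genes. At a threshold of 0.6, 194 were higher and 262 lower, and at 2, 17 and 44. With 1 row per symbol in every table, an alternative chosen after seeing the data, 23 were higher and 43 lower, small RNAs included. A gap of 0.2 gave 1221 above and 1062 below, and 0.5 gave 191 and 159. Leaving out each of the other columns in turn gave 55 to 67 higher, 76 to 170 lower, 718 to 919 above and 576 to 692 below; the 76 came without the NCSC column. In all, 48 of 68 recomputed counts stayed within 1.5 times. When all rows of a symbol were summed, 4 genes turned direction: RHOT1 (1.35), RAE1 (1.38), WDR27 (1.99) and PRDM10 (0.60). In the DE table the rows kept for them held 0 FPKM in hESC and 398, 91.3, 293 and 76.5 in DE cells. Only the handling of rows differs between these runs, so the direction of these 4 genes depends on the row kept. Why those rows held 0 FPKM in hESC was not tested.

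Over all alternatives run, the list medians ranged from -2.50 to -1.90 for metallothioneins, -0.50 to -0.29 for the amino acid response, -0.36 to -0.29 for ribosome biogenesis, 0.41 to 0.77 for p53 targets, 0.44 to 0.53 for cholesterol synthesis and 0.27 to 0.41 for extracellular matrix. No paired analysis was possible because each table holds 1 hESC value with the replicates combined. FPKM ratio and score had opposite signs for 8 of 9116 genes in at least 1 table, 4 of them in the glycolysis list.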

Other observations

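Other genes with 1 row per symbol that lay apart in the DE-table hESC column were named after their values were seen, and no theme is drawn from them. EDN1, endothelin 1, had an FPKM of 0.54 in the DE table against 4.99 to 5.86 in the other tables, and ANXA1, annexin A1, had 5.65 against 13.9 to 16.1. The HMG-box factor SOX21 had 9.96 against 22.4 to 25.4, and RARRES2, the precursor of chemerin, 31.6 against 68.2 to 78.6. Higher were C12orf5, also called TIGAR, a regulator of glycolysis (15.4 against 6.43 to 7.77), the fatty acid elongation enzyme TECR (125 against 53.6 to 60.8), the Wnt antagonist SFRP2 (158 against 95.8 to 102) and the neuropeptide GAL (205 against 125 to 132). The cystatin CST1 (31.6 against 15.5 to 16.7) was higher as well, and it has similar copies with which reads may be shared.

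In the hESC column beside NCSC, 12 symbols had at least 100 FPKM in hESC and less than 1 in the other 3 tables, and all 12 have several rows in that table, which holds 7510 rows of repeated symbols against 1213 to 1266 in the others. Small RNAs, left out of the named genes, were unsteady: MIR302D was 2006 FPKM in the DE table and 2176 in the NCSC table but listed at 0 in the MESO and NPC tables. Among genes with 1 row in every table, TMEM42 had 10.5 FPKM in the NCSC table against 143 to 194.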
